A study of Homo sapiens with 8 samples.

Results

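The open chromatin described here is that of the last 3 salt washes of an anion exchange fractionation of 293T cells, at 500, 700 and 1000 mM NaCl. The members are the peak lists of these 3 libraries, G500, G700 and G1000, of 8 libraries in all. Peaks of the 3 lists that shared 1 bp or more were merged, which gave 15793 regions, and each region was sorted by the washes that called it. 293T cells are a human line from embryonic kidney, with the large T antigen of the SV40 virus. All libraries came from this 1 line, whose cells were crosslinked, permeabilised and cut by a transposase. The mixture was then held on Q Sepharose and released by rising salt, after a flow-through (FT) and washes at 20, 100, 200 and 300 mM (G20 to G300). Each wash gave 1 library, so differences are given without a replicate check, and each test compares libraries and not salt conditions. Positions are those of hg19, and gene annotation and sequence of that build were not used here. Markers of 293T cells could therefore not be looked up among the peaks, and the label of the cells was not checked.

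ATAC-seq marks DNA that a transposase can reach, which in most cells means promoters, enhancers and insulator sites free of nucleosomes. Q Sepharose carries positive charges and binds DNA and acidic proteins, and salt competes for these charges. Material that leaves the resin at high salt is thus bound more firmly than material that leaves early. Repeated sequences such as satellite DNA, ribosomal DNA and telomere-adjacent repeats also give strong ATAC-seq peaks, since an assembly holds fewer copies of them than a cell.

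All 3 late washes still gave open chromatin peaks, of similar median strength. G500 held 10384 peaks over 5.18 Mb, G700 held 8102 over 3.76 Mb and G1000 held 10246 over 5.03 Mb. The authors' −log10 q, a measure of how far a peak stands above its background, had a median of 5.12 (G500), 5.06 (G700) and 5.26 (G1000). The number of reads over each summit was recovered from the fold and p-value of the peak. Its median was 10 (G500), 10 (G700) and 11 (G1000), and the weakest peaks of each list had 4 reads. Peaks under 10 reads made up 43.2% of G500, 46.9% of G700 and 41.6% of G1000. The recovered genome background was 0.279 reads (G500), 0.248 (G700) and 0.291 (G1000). It follows the depth of a library only where the calling parameters are alike, and these are not given. G700 had the lowest background of the 3 and the shortest list.

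The washes shared a core of 4720 regions, which was 29.9% of all regions (95% Clopper-Pearson interval 29.2 to 30.6). A pair of washes called 3452 regions (21.9%), and a single wash called 7621 (48.3%). Among the pairs, G500 and G1000 shared 1755 regions without G700. G500 and G700 shared 854 without G1000, and G700 and G1000 shared 843 without G500. Of the regions called once, 3043 were from G500, 2916 from G1000 and 1662 from G700. The largest pair class was therefore the one that left out the library with the shortest list. Counted by reads the core was larger, because it held 49.4% of the peaks of the 3 lists and 65.0% of their summit reads. Regions called once held 16.2% of the reads.

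**Figure D1:**
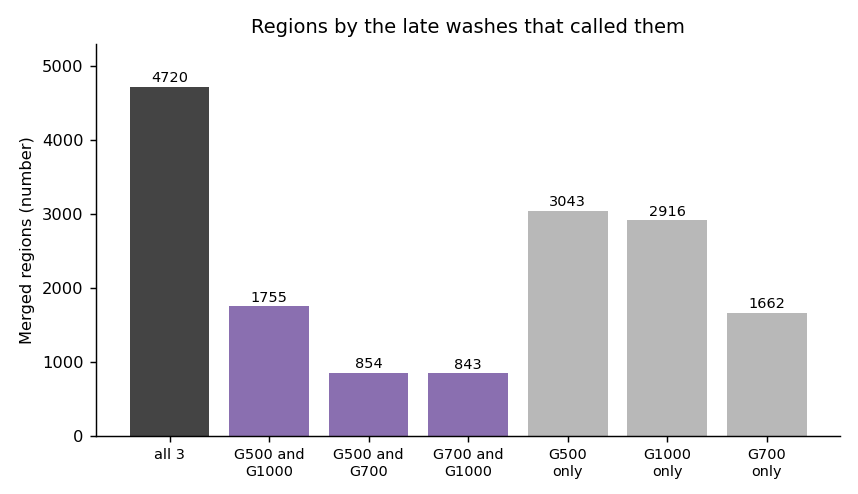
Number of merged regions (vertical axis) in each of the 7 classes (horizontal axis), 1 library per wash. The class called in all 3 washes is the tallest at 4720, and the pair of G500 and G1000 (1755) is about as large as the other pair classes (854 and 843) together.

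Core regions were wider and stronger than the others. Their median width was 698 bp, against 552 bp for regions of G500 and G1000 alone and 369 bp, 337 bp and 361 bp for those of G500, G700 or G1000 alone. The median −log10 q of core regions was 7.66 (G500), 6.63 (G700) and 8.01 (G1000). It was 3.39, 3.22 and 3.46 in the regions that only G500, only G700 or only G1000 called. The median reads of the core were 14 (G500), 12 (G700) and 15 (G1000), and those of each single class were 7. Wider merged regions are partly a result of merging more peaks. A region also needs enough reads to be called in each list, so strength and class are not independent measures.

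Agreement between the washes depended on the reads of a peak. Of the G500 peaks with 4 or 5 reads, 3.51% lay in core regions (interval 2.33 to 5.07), and 78.8% were called in no other late wash. At 10 to 14 reads the core share was 51.2% (49.4 to 52.9), and at 20 to 29 reads it was 93.8% (92.0 to 95.3). G1000 gave nearly the same shares, with 4.96%, 50.7% and 92.9% at these read numbers. The shares of G700 were higher, with 13.2%, 71.5% and 97.3%, and its peaks were matched against the 2 longer lists. At 30 or more reads the climb had stopped in G500 (93.2%, interval 90.1 to 95.5) and G700 (94.5%, interval 90.7 to 97.0), and G1000 was at 96.5% (94.2 to 98.1). The G500 peaks called in no other late wash were 1.14% at 20 to 29 reads (0.548 to 2.09) and 3.16% at 30 or more (1.64 to 5.45). By the authors' −log10 q, peaks at 20 or more lay in the core in 313 of 319 cases in G500, 192 of 192 in G700 and 354 of 358 in G1000.

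**Figure D2:**
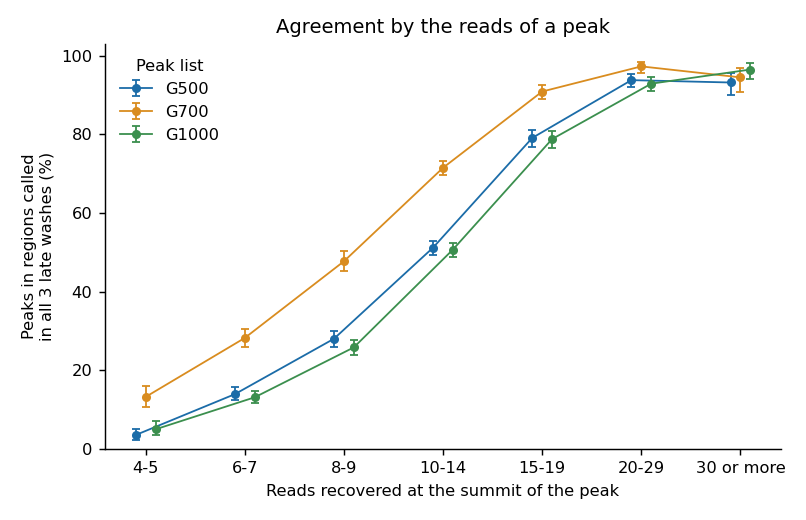
Share of the peaks of each list that lie in regions called in all 3 late washes (vertical axis, percent) by the reads recovered at the summit (horizontal axis). Points are shares, bars are 95% Clopper-Pearson intervals, and colours are the 3 lists. The lines climb from 3.51% (G500), 13.2% (G700) and 4.96% (G1000) at 4 or 5 reads to 93.8%, 97.3% and 92.9% at 20 to 29 reads. At 30 or more reads they are at 93.2%, 94.5% and 96.5%.

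The overlap of each pair of washes was close to the same. Of the G700 peaks, 68.8% overlapped a G500 peak and 68.7% a G1000 peak, and of the G1000 peaks 63.2% overlapped a G500 peak. The Jaccard index, the shared bases over all covered bases, was 0.352 for G500 and G700, 0.381 for G500 and G1000 and 0.358 for G700 and G1000. When every list was cut to 8102 peaks by −log10 q, the length of G700, the overlaps were 62.7%, 63.0% and 65.2%. The pairs thus lay within a few percentage points. The pair farthest apart in salt had the highest overlap at equal length and the highest Jaccard index. With all peaks its share of the shorter list was the lowest (63.2%). The cut kept G700 peaks down to a −log10 q of 1.32 and those of G500 and G1000 down to 3.23. The pairs with G700 thus held weaker peaks, and the part of this in the order of the pairs was not tested. Only 2, 6 and 5 peaks had the same start and end in G500 and G700, G500 and G1000, and G700 and G1000, so no list repeats another.

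The 3 early fractions FT, G20 and G100 agreed more at equal list length. They shared 41.4% of their regions (4892 of 11809, interval 40.5 to 42.3), against 32.3% for the late washes (4203 of 13016, interval 31.5 to 33.1). With all peaks the shares were 33.4% and 29.9%. The recovered background of the early libraries was higher, at 0.662 reads (FT), 0.420 (G20) and 0.320 (G100). At equal length, the weakest peak kept had a −log10 q of 7.89 (FT), 7.18 (G20) and 4.45 (G100). For the late washes it was 3.23 (G500), 1.32 (G700) and 3.23 (G1000). The part of depth in this difference was not tested, and with 1 library per fraction the difference itself has no test.

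Within the core, the summits lay close together. In the 4684 core regions with 1 peak per list, the median distance between summits was 81 bp for G500 and G700, 79 bp for G500 and G1000 and 77 bp for G700 and G1000. All 3 summits fell within 100 bp in 35.7% of these regions and within 250 bp in 80.8%. The span of the 3 summits shrank as reads grew. Its median was 167 bp where the weakest list had 4 to 9 reads (1702 regions), 126 bp at 10 to 19 reads (2453 regions), 93 bp at 20 to 49 (460 regions) and 41.5 bp at 50 or more (66 regions).

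Most regions called at high salt had also been called in an earlier fraction. Of all 15793 regions, 1504 (9.52%) were in none of the 5 earlier lists and 45.9% were in all 5. Of the 4720 core regions, FT called 99.3%, G20 98.8%, G100 95.2%, G200 94.4% and G300 98.8%. All 5 earlier lists called 4215 of them (89.3%), and 0 core regions were absent from all 5. Of the regions of a pair of late washes, 93.0% were called in FT and 72.6% in G100, and 22 (0.637%) were in no earlier list. Of the regions called in a single late wash, 62.2% were in FT and 34.4% in G100, and 1482 (19.4%) were in no earlier list. These 1482 were weak, with a median −log10 q of 2.64 (G500), 2.49 (G700) and 2.68 (G1000). The other regions of the same classes had 3.56, 3.34 and 3.69. FT and G300 have the highest recovered backgrounds (0.662 and 0.497 reads) and G100 and G200 the lowest of the 5 (0.320 and 0.239). What depth contributes to the differences between the earlier lists was not tested. The peaks of the G200 list are named G50_200 within the deposited file, and those of the FT list GL, which the labels do not explain.

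**Figure D3:**
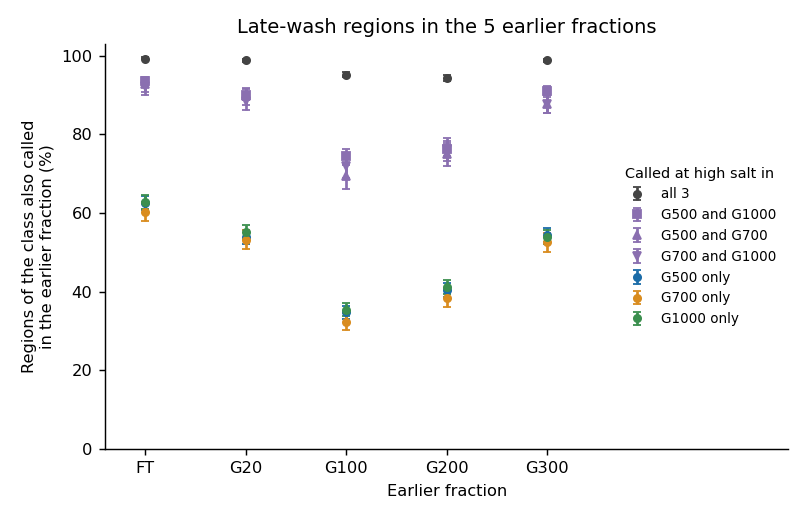
Share of the regions of each late-wash class (colours and symbols) that were also called in each of the 5 earlier fractions (horizontal axis), in percent with 95% Clopper-Pearson intervals. Core regions sit at 94.4% to 99.3%, the 3 pair classes at 69.4% to 93.6% and the 3 single classes at 32.3% to 62.8%.

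The core regions least seen in earlier fractions had a −log10 q below the core median in each late wash. There were 6 that were called in a single earlier list, and they were chosen after their values were seen. On chromosome X from 133887250 to 133887857, G300 was that list, and the −log10 q was 6.09 (G500), 3.16 (G700) and 4.02 (G1000). On chromosome 18 from 43684229 to 43684714, FT was that list, with 6 reads (G500), 7 (G700) and 12 (G1000). The −log10 q there was 2.59 (G500), 4.41 (G700) and 7.39 (G1000), the last above the median of the whole G1000 list (5.26). On chromosome 6 from 28219800 to 28220483, FT was again that list, with 8, 4 and 9 reads. The others lay on chromosome 3 from 89363564 to 89364083 and from 39425545 to 39425933, where G20 called them, and on chromosome 8 from 30580556 to 30581062, where G300 did. In these 3 the late washes had between 5 and 9 reads. Of the 22 pair regions in no earlier list, the highest −log10 q was 5.81, in G1000. It was reached on chromosome 4 from 112633377 to 112633691 (11 reads in G700 and 13 in G1000) and on chromosome 14 from 62231839 to 62232496 (10 reads in G500 and 13 in G1000).

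The reads of the core regions were close in the 3 washes. Of the 4720 regions, 4690 had recovered reads in all 3 lists, with a median of 41 summed reads. Scaled to the 4550 ordinary core regions (on placed chromosomes, far from their ends and from the widest stretch without peaks), G500 was expected to hold 34.9% of the reads of a region, G700 29.7% and G1000 35.4%. In 1 region (0.0213%) a library differed from the other 2 after adjustment (exact binomial test, two-sided, Benjamini-Hochberg over 14070 tests). Without adjustment, 108 regions had a p under 0.05 in G500 (2.30%), 79 in G700 (1.68%) and 83 in G1000 (1.77%). For the ordinary regions, the spread between 2 washes was 0.667 times that of counting alone for G500 and G700, 0.669 times for G500 and G1000 and 0.645 times for G700 and G1000. Core regions had to pass a threshold in each list, which narrows this spread, so the test is approximate and its p-values cover counting error only.

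The scaled reads of ordinary core regions differed by at most 1.5-fold in 80.4% of regions for G500 and G700, in 81.8% for G500 and G1000 and in 80.7% for G700 and G1000. Differences within 2-fold covered 96.9%, 97.8% and 97.7%. In the 461 regions with 20 or more reads in every wash, 93.1%, 94.4% and 92.8% lay within 1.5-fold. This filter uses the same reads and leaves out regions where 1 wash was low. These shares are therefore partly set by the choice of regions. Across the 4550 regions, Spearman's rho of the reads was 0.70, 0.73 and 0.71 for these pairs, as a description of regions that share sequence and mappability between libraries.

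**Figure D4:**
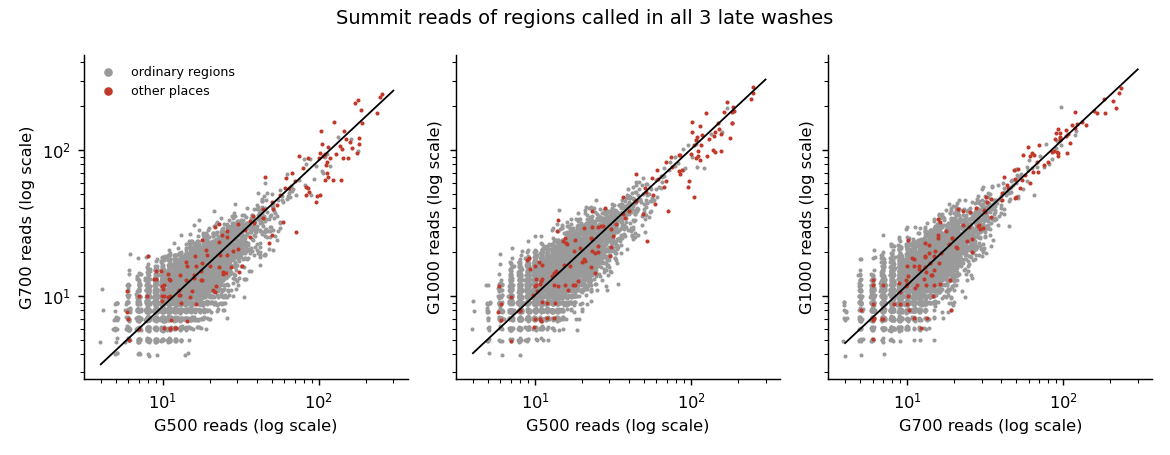
Summit reads of the 4690 core regions in pairs of late washes, on log axes, with a small random offset so that points with equal counts do not hide each other. Grey points are ordinary regions, red points lie beside peak-free stretches, at chromosome ends or on unplaced sequences, and the line is the ratio of the summed ordinary reads. Grey points lie around the line in each panel, and red points such as the ends of X and Y (97 and 102 reads in G500) lie below it where G500 is the horizontal axis.

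The 3 peaks of highest −log10 q lay in the same regions in each wash. Rank 1 was chromosome 1 from 121484135 to 121485439, where the −log10 q reached 1558 (G500), 1490 (G700) and 1642 (G1000). Rank 2 was chromosome 19 from 27731858 to 27732776 (791, 683 and 896), and rank 3 was chromosome 7 from 61968674 to 61969772 (358, 313 and 369). These lie beside the widest stretch without peaks on their chromosome, where alpha satellite, the repeat of human centromeres, is common. Reads could not be recovered for them.

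Among ordinary core regions, the first by mean rank was chromosome 9 from 69710786 to 69711312, with 161 reads (G500), 119 (G700) and 137 (G1000). Its fold in G500 was 25.9, against a core median of 6.73. Ordinary regions are defined by position alone, and no list of repeats or artefact regions was applied here. Repeated sequence among these leading regions was therefore not set apart. The first region was followed by chromosome 3 from 73159868 to 73160326 (133, 120 and 131 reads) and by chromosome 9 from 66970990 to 66971490 (105, 72 and 91 reads). The reads of these 3 regions were within counting error of the expected shares (smallest unadjusted p of the exact binomial test 0.111). The fourth, on chromosome 1 from 566066 to 566755, lies in a stretch known for a nuclear copy of mitochondrial DNA. It had 172 reads (G500), 99 (G700) and 197 (G1000). G700 was low there before adjustment (p = 3.23e-05) and not after it (adjusted p = 0.160 in the exact binomial test).

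Of the other 6 leading ordinary regions, 5 had reads near the expected shares (smallest unadjusted p of the exact binomial test 0.130). Chromosome 9 from 67320362 to 67320952 had 83, 81 and 82 reads in G500, G700 and G1000, and chromosome 4 from 68265440 to 68265984 had 86, 89 and 101. Chromosome 1 from 149223151 to 149224500 had 110, 95 and 112 reads, and from 143912806 to 143914113 it had 97, 78 and 107. Chromosome 9 from 82186041 to 82186960 had 79, 86 and 87. The exception was chromosome 21 from 9826779 to 9827531, a stretch known for a partial copy of ribosomal DNA, with 120 reads (G500), 78 (G700) and 76 (G1000). Its unadjusted p in G500 was 0.00229 and its adjusted p = 1.00 in the exact binomial test. All 10 leading ordinary regions were called in each of the 5 earlier lists.

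Strong peaks missing from 1 or 2 late washes were rare among ordinary regions and more frequent in some of the other places. Of the peaks with 20 or more reads in the 3 lists, 95.5% of the ordinary ones lay in core regions (2882 of 3018, interval 94.7 to 96.2). The share was 86.0% beside peak-free stretches (135 of 157, interval 79.6 to 91.0) and 76.8% on unplaced or random sequences other than gl000220 (73 of 95, interval 67.1 to 84.9). It was 87.2% on gl000220 (34 of 39, interval 72.6 to 95.7) and 94.7% at chromosome ends (18 of 19, interval 74.0 to 99.9). The median local background was 1.90 reads under ordinary peaks, 13.5 beside peak-free stretches, 4.81 on the other unplaced or random sequences, 41.2 on gl000220 and 1.59 at chromosome ends. The part of local background in these shares was not tested. Peaks of 1 region are not independent of each other, and the intervals cover counting error only.

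The regions with the highest −log10 q among those of 1 wash were on both kinds of sequence. G500 alone called chromosome 11 from 51586741 to 51587032 (141 reads, −log10 q 45.9) and chromosome 10 from 42399233 to 42399519 (98 reads, 26.9), both beside peak-free stretches. Next came chromosome 8 from 43827947 to 43828261 (34 reads, 16.5), which counts as ordinary here. The peak-free stretch of chromosome 8 is not its centromere, so regions near that centromere were not set apart. G700 alone called chromosome 8 from 117886756 to 117887266 (21 reads, 13.5), the unplaced gl000226 from 10830 to 11100 (64 reads, 13.3) and chromosome 14 from 29235777 to 29236075 (20 reads, 11.8). G1000 alone called chromosome 17 from 22254656 to 22254942 (52 reads, 15.8), chromosome 1 from 161391697 to 161392275 (25 reads, 14.6) and chromosome 12 from 64797937 to 64798547 (21 reads, 14.6). The region on chromosome 8 from 43827947 and that on gl000226 were in no earlier list, and the others were in at least 1.

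The leading regions of 2 washes were chosen in the same way, by their highest −log10 q. G500 and G1000 shared gl000225 from 25523 to 25994 (33 and 40 reads), an unplaced sequence, and the random sequence gl000205 of chromosome 17 from 33502 to 34135 (15 and 31 reads). They also shared chromosome 18 from 110216 to 110681 (50 and 67 reads). G500 and G700 shared the first bases of chromosome 1, from 9997 to 10430 (24 and 9 reads), chromosome 1 from 162530870 to 162531690 (28 and 15 reads) and chromosome 2 from 92312927 to 92313470 (67 and 66 reads). G700 and G1000 shared chromosome 9 from 35072267 to 35072992 (13 and 27 reads), chromosome 4 from 153700698 to 153701459 (12 and 27 reads) and chromosome 22 from 30987795 to 30988403 (19 and 12 reads). Each of these regions was called in at least 4 of the 5 earlier lists.

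Of the 4 kinds of place set apart from ordinary regions, chromosome ends had the ratio farthest from 1, and G500 was the high library. An end was taken as the first bases of a chromosome or the 20 kb before its last peak, and a last peak can lie well inside the assembly. The region that passed the read test was the last one on chromosome Y, from 59363037 to 59363410, with 102 reads (G500), 49 (G700) and 48 (G1000). G500 was the library that differed (adjusted p = 0.0321, exact binomial test). The matching end of chromosome X, from 155260030 to 155260404, had 97, 44 and 56 reads. The tips of X and Y share their sequence, so reads of one can be placed on the other and the regions are not independent. Whether the cells carry a chromosome Y was not checked, so these reads are placed on it by the assembly alone. On chromosome 12 from 133841529 to 133841891 there were 71, 28 and 39 reads, and at the first bases of chromosome 5, from 10069 to 11759, there were 96, 49 and 62. On chromosome 11 from 134721606 to 134721992 there were 49, 23 and 38. The remaining 3 end regions were more even, with 31, 31 and 28 reads on chromosome 10, 17, 13 and 16 on chromosome 19, and 11, 10 and 9 on chromosome 6.

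Together, the 8 end regions had 1.34 times the expected reads in G500 (95% Clopper-Pearson interval of the share, 1.25 to 1.43), 0.817 times in G700 (0.730 to 0.910) and 0.821 times in G1000 (0.743 to 0.903). Without the chromosome Y region the G500 value was 1.30 (1.21 to 1.40). The sum holds the region that passed the read test and regions that may share reads, so it carries no test of its own.

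The scaffold gl000220 was also higher in G500, and the regions beside peak-free stretches were not. The 11 core regions of gl000220, an unplaced scaffold with copies of the ribosomal RNA genes, had 1523 reads (G500), 972 (G700) and 1279 (G1000). This was 1.16 times the expected number in G500 (1.11 to 1.20), 0.867 times in G700 (0.820 to 0.915) and 0.956 times in G1000 (0.914 to 1.000). The 35 core regions on the other unplaced or random sequences had 1.05 times the expected reads in G500 (1.02 to 1.09). Their ratio was 0.954 in G700 (0.911 to 0.998) and 0.985 in G1000 (0.946 to 1.02). The 86 core regions beside peak-free stretches had 0.966 times the expected reads in G500 (0.943 to 0.989), 1.04 times in G700 (1.01 to 1.07) and 1.00 times in G1000 (0.978 to 1.02). These 86 were set apart by position alone. How reads that map to several places were treated is not given in the sources used here, and its part in these ratios was not tested.

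An array on chromosome X, picked after its values were seen, was also higher in G500. Between 114960433 and 115005187, 16 regions followed each other at a median spacing of 2981 bp (2051 to 3083 bp). The position and the mostly even spacing are those of DXZ4, a macrosatellite known for CTCF binding in its units. This is general knowledge of the assembly and not an annotation used here. G500 called all 16, G700 called 13 and G1000 called 12. The 12 regions called in all 3 had 637 reads (G500), 367 (G700) and 463 (G1000), which was 1.25 times (1.17 to 1.32), 0.842 times (0.768 to 0.919) and 0.891 times (0.824 to 0.960) the expected number. G500 was the highest after scaling in each of the 12. No single unit passed the read test (smallest unadjusted p in G500 0.00800, adjusted p = 1.00 in the exact binomial test). The units are near copies of each other, so their reads cannot be counted as 12 separate results. In all 8 libraries, the ratio to the ordinary regions of all lists was 1.11 (FT), 0.944 (G20), 0.999 (G100), 0.927 (G200), 1.10 (G300), 1.17 (G500), 0.790 (G700) and 0.832 (G1000). Without the array, the core regions of chromosome X had 1.03 times the expected reads in G500 (1.00 to 1.06).

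**Figure D5:**
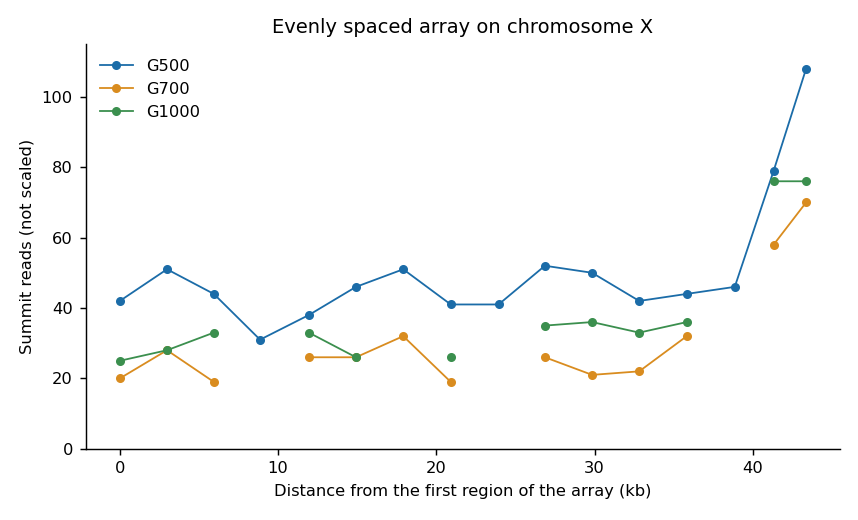
Summit reads, not scaled for depth (vertical axis), of the 16 regions of the chromosome X array by distance from the first one in kb (horizontal axis). Colours are the 3 late washes, and a missing point is a region that the wash did not call. G500, with 31 to 108 reads, lies above each of the other washes at every region that they called.

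In 2 other stretches G700 and G1000 called fewer peaks than G500. On chromosome 1 from 228744226 to 228784142, the position known for the tandem 5S ribosomal RNA genes, G500 called 5 peaks of 22 to 32 reads, G700 called 2 of 16 and 18 reads, and G1000 called 0. The earlier lists held 11 peaks (FT), 11 (G20), 9 (G100), 7 (G200) and 10 (G300) there. On chromosome 19 from 50595868 to 50637475, G500 called 8 peaks of 11 to 19 reads at a median spacing of 5429 bp, G700 called 2 and G1000 called 1. The earlier lists held 7 (FT), 9 (G20), 4 (G100), 11 (G200) and 7 (G300). The 1 region of this stretch called in all 3 late washes had 13 reads in each. Reads of a wash that called no peak are not in the files, so the level at the missing positions is unknown. These stretches were picked after their values were seen.

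Dense runs, defined as 5 or more regions with gaps of at most 10 kb, numbered 16. Besides the array on chromosome X they included 2 runs on gl000220, where the core regions had 1.14 and 1.22 times the expected reads in G500. A run on gl000226 had 1.19 times (1.09 to 1.30). Others went against G500. The lowest G500 ratio of the 16 runs, 0.701 (0.527 to 0.901), was on chromosome 16 from 46391136 to 46417336, where G500 called 2 regions and G700 and G1000 called 4 each. It rests on the 1 core region of that run, with 44 reads (G500), 65 (G700) and 71 (G1000). On chromosome 10 from 42384897 to 42400755, beside a peak-free stretch, the core regions had 0.905 times the expected reads in G500 (0.843 to 0.968) and 1.06 times in G700. On chromosome X from 61683011 to 61719889, G1000 called 8 regions, G500 called 4 and G700 called 2. This run counts as ordinary, but on chromosome X regions near the centromere were not set apart. On chromosome 1 from 149803626 to 149833297, a stretch known for a histone gene cluster, all 5 regions were called in all 3 washes, with 109 reads (G500), 95 (G700) and 96 (G1000). These were 1.04, 1.07 and 0.903 times the expected numbers, each with an interval that includes 1.

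The core was not spread over the chromosomes as the regions of single washes were. Chromosome 19 held 5.66% of the core regions (267 of 4720, interval 5.01 to 6.35) and 3.82% of the regions called once (291 of 7621, interval 3.40 to 4.27). Chromosome 1 held 12.3% (11.4 to 13.3) against 10.2% (9.49 to 10.9), and chromosome X held 4.58% (216 of 4720) against 3.46% (264 of 7621). Chromosome 13 went the other way, with 2.22% of the core (1.82 to 2.69) against 3.06% (2.68 to 3.47), and so did chromosome 15, with 2.03% (1.65 to 2.48) against 2.85% (2.49 to 3.25). Chromosome 17, like chromosome 19 rich in genes, held 3.07% of the core (2.60 to 3.60) and 3.62% of the regions called once (3.21 to 4.07), with intervals that overlap. By chromosome, the share of regions in the core was 37.4% on 19, 36.2% on X, 34.9% on 14 and 33.6% on 1. The share was 24.8% on chromosome 13, 24.7% on 18, 22.7% on 15 and 22.6% on 20. The median summed reads of core regions were 45.0 on chromosomes 1 and 13, 43.0 on 14 and X and 40.0 on 19. They were 37.5 on chromosome 15, 37.0 on 17, 35.0 on 18 and 31.0 on 20. Being in the core depends on reads, and the part of peak strength in these shares was not tested. These chromosomes were picked after their values were seen, and regions of a chromosome are not replicates.

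Within the core, the reads of most chromosomes lay near the expected shares. With Y left out, the G500 ratio lay between 0.967 and 1.01 on every chromosome except 18 (1.03), 21 (1.10) and X (1.06). Chromosome 19 had 1.01 times the expected reads in G500 (0.983 to 1.03), 0.959 times in G700 (0.933 to 0.986) and 1.03 times in G1000 (1.00 to 1.05). The G700 ratio was 1.06 on chromosome 13 (1.02 to 1.10), 1.05 on 4 (1.02 to 1.08) and 1.03 on 6 (1.01 to 1.06). On X the G700 ratio was 0.971 (0.942 to 0.999). Chromosome 21 had 1.10 times in G500 (1.03 to 1.16), and 1.07 times (1.000 to 1.14) without its 2 regions from 9825730 to 9827531.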

How the data were processed

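Each library was 1 list of peaks that the authors called for that library alone. Bowtie2 2.2.6, MACS2 2.2.1 and HOMER are named, with the builds hg19 and mm10, per the submitters' processing notes, and the scaffold names in the files are those of hg19. Read filters, calling parameters and what was done with multiply mapped reads are not given here in any source used. The deposited columns are an integer score, a fold or ratio of the pileup at the summit over its background, a −log10 p and a −log10 q. Coordinates are printed counted from 1.

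Summit reads are the whole-number pileup and background that give both the deposited fold and the deposited −log10 p under a Poisson model (tolerance 0.001). A match was found for 99.97% of G500 peaks, 99.96% of G700 peaks and 99.97% of G1000 peaks, and for 0.549% to 0.580% when the fold and p of different peaks were paired. Only single matches were used, which left out 81, 20 and 76 peaks.

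Peaks sharing 1 bp were merged. Regions up to 1 Mb from the widest stretch without peaks on a chromosome (called the peak-free stretch), within 20 kb of its first base or last peak, or on unplaced or random sequences were set apart from ordinary ones. On some chromosomes, X and 8 among them, that stretch is not the centromere, and regions near the centromere there count as ordinary. Reads of 1 library were tested against the other 2 with an exact binomial test (two-sided, Benjamini-Hochberg). It was checked on simulated Poisson reads, where most 2-fold changes were not called. That check did not include the selection of core regions, for which the test is not calibrated. Intervals are 95% Clopper-Pearson and cover counting error only, since pileups may hold duplicates. Python 3.11.15, numpy 2.4.6, pandas 2.3.3 and scipy 1.17.1 were used.

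Named regions were the 10 ordinary core regions of highest mean rank by −log10 q and the first 3 others, the 3 of highest −log10 q in each pair and single class, and regions that passed the read test. Other regions are said to be chosen after their values were seen. The members and lists were chosen with earlier results of these data known. Gene lists, promoter windows, cell type markers and motifs, which need hg19 annotation or sequence, were not used here. Alternatives for merging, threshold, list length, overlap, scaling and filter are given at the end.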

Additional observations from a re-analysis of the deposited data

How the results depend on the processing

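The share of regions called in all 3 late washes was 29.9%. It was 30.9% with peaks of −log10 q of at least 2, 32.0% with at least 5 and 32.3% at equal list length, and between 29.4% and 30.1% with a 100 bp overlap, a 100 bp merging distance or ordinary regions alone. The overlap of G500 and G700 (68.8%) was 58.5% with a reciprocal overlap of 50%, 39.3% with summits within 100 bp and 62.7% at equal length. For G500 and G1000 (63.2%) these values were 54.9%, 35.7% and 65.2%, and for G700 and G1000 (68.7%) they were 58.9%, 40.1% and 63.0%. Stricter definitions of a shared peak give lower overlaps by construction.

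The exact binomial read test called 1 region, the end of chromosome Y, also with scaling by the recovered background, scaling by the median ratio and at least 30 summed reads (adjusted p 0.0126 to 0.0321). With ordinary regions tested alone, which leaves out that region, the exact binomial test called 0, and 184 regions had an unadjusted p under 0.05. The chromosome differences kept their direction at equal length, with chromosome 19 at 1.8 percentage points in all peaks and 1.7 at equal length. The planned promoter windows were not run, because they need hg19 annotation. No paired analysis was possible because each wash had 1 library. The effect of depth was not tested.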
